A study of Mus musculus with 12 samples.

Results

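The BCL2 family of apoptosis genes was followed in CommaDβ cells, a normal mouse mammary epithelial cell line in which undifferentiated and differentiated cells live side by side. The 10 members, Bcl2, Bcl2l1, Mcl1, Bax, Bak1, Bcl2l11, Bbc3, Pmaip1, Bid and Bmf, were taken by name from the 21853 genes of an RNA-seq table, and all 10 were found, each with the Entrez identifier that RefSeq gives for GRCm38.p6. The 12 libraries form 4 groups of 3. Sca-high cells (SCA+ in the labels) were sorted as positive for stem cell antigen-1 (Sca-1) and stand for basal cells with progenitor properties, and Sca-low cells (SCA-) were sorted as negative for Sca-1 and stand for luminal cells. Both were uninfected. Sca-high NT cells (SCA+_NI) carried pSliK34a, a lentiviral vector from which doxycycline induces miR-34a, and were not induced. Sca-high 34a cells (SCA+_34a) carried the same vector and had received doxycycline for 24 h. The questions were how the family differs between undifferentiated and differentiated cells and how it responds to miR-34a. Doxycycline on cells without the vector was not analysed here, so the effects of doxycycline and of miR-34a cannot be told apart. All cells came from a single line, and nothing in the labels says that replicates were separate cultures, so p-values here cover the spread among libraries, possibly only technical in origin.

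The libraries held 33668289 to 41828930 reads assigned to genes, as recovered from the deposited values. Mir34a was at 74.9 to 128.5 scaled RPKM (reads corrected for gene length and library depth, then scaled between libraries) in the 3 Sca-high 34a libraries and at most 0.93 in the other libraries, as the titles of the samples say and against a genotype label that names the vector groups the other way round. These reads do not measure mature miR-34a, which the paper reports as higher in Sca-low than in Sca-high cells. Libraries are numbered as in the table, with 1 to 3 from Sca-high, 4 to 6 from Sca-low, 7 to 9 from Sca-high NT and 10 to 12 from Sca-high 34a cells. Ly6a, which encodes Sca-1, was at 9.93 to 13.4 scaled RPKM in Sca-high and at 1.00 to 1.88 in Sca-low libraries. Library 3 (Sca-high) and library 12 (Sca-high 34a) stood apart from their own groups, with a chi-square of 48.9 to 125 per gene against 9.61 to 29.1 for all other pairs, and results are therefore also given without them where that changes a call. The sum of 8 luminal markers was 778 to 835 scaled RPKM in Sca-low libraries and at most 16.0 elsewhere, that of 7 basal markers was 1320 to 1620 in Sca-high and 376 to 475 in Sca-low libraries, and it was 2030 to 2250 in Sca-high NT and 473 to 531 in Sca-high 34a libraries. The basal markers did not move together in Sca-high NT cells, as Krt17 was at 535 to 685 scaled RPKM against 47.2 to 54.2 in Sca-high libraries, while Acta2 was at 16.5 to 20.8 against 37.8 to 44.4. Sums of 5 fibroblast, 5 leukocyte and 5 endothelial markers reached at most 2.63, 1.69 and 0.116. These are bulk samples, in which fewer cells that express a gene and less RNA per cell cannot be told apart.

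BCL2 family proteins decide at the outer mitochondrial membrane whether a cell releases cytochrome c and dies. BAX and BAK1 are the effectors that form pores in this membrane, pro-survival proteins such as BCL2, BCL-XL (the product of Bcl2l1) and MCL1 hold them in check, and BH3-only proteins, among them BIM (Bcl2l11), PUMA (Bbc3), NOXA (Pmaip1), BID and BMF, bind the pro-survival proteins or activate the effectors. In the mammary gland the family is known for its part in the clearing of the lumen and in involution after weaning. miR-34a is a microRNA under the control of p53, and BCL2 is among its known targets in human cells.

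The mature miR-34a-5p is shown first because it is the molecule that was induced, with its seed (bases 2 to 8) in capitals. It is encoded at chr4:150068473-150068494 on the plus strand (RefSeq, GRCm38.p6).
miR-34a-5p: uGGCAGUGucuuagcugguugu
The longest 3′ UTR among the protein-coding transcripts of each member (GENCODE vM21, GRCm38) was searched on the transcribed strand for the letters CACTGCC, which pair with bases 2 to 8, and for ACTGCCA, which pair with bases 2 to 7 and end in an A. The letters overlap in the 8-base site CACTGCCA, which holds both. A 7-base match was present in 5 of the 10 members, against 2303 of 9848 tested genes with a UTR (23.4%), or in 3 of the 8 members tested, and the 8-base site was in 0 of the 10 members, against 604 of those genes (6.13%). UTRs differed in length, from 224 bases in Bax to 5086 in Bcl2, and the median was 1834 bases over the 8 tested members and 1196 over all tested genes. Each match is printed within 30 bases of its UTR, 5′ to 3′ on the strand of the gene and with the match in capitals, to mark which members hold letters that pair with the seed.
Bcl2, chr1:106543048-106543077, minus strand: atcagctatttACTGCCAaagggaaatatc
Bax, chr7:45461836-45461865, minus strand: ctgaggcctccCACTGCCttggactgtgtc
Bid, chr6:120894237-120894266, minus strand: cccgatggtgaCACTGCCtccagaggaacc
Bbc3, chr7:16317334-16317363, plus strand: tagcatactggACTGCCAgccttgcccgtc
Bmf, chr2:118531906-118531935, minus strand: gggtgcaaactACTGCCAcctttgctggag
Bmf, chr2:118529013-118529042, minus strand: ccccaggcttgCACTGCCcctttctctaca
In Bax and Bid the match lay near the stop codon, from base 67 and base 26 of the UTR. Bcl2l1, Mcl1, Bak1, Bcl2l11 and Pmaip1 held neither 7-base match in the UTR searched, which says only that these letters are not in it. A match is a description of the sequence and not a site of binding.

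The 4 groups were compared in 4 ways, as undifferentiated Sca-high minus differentiated Sca-low cells, induced (Sca-high 34a) minus uninduced (Sca-high NT) vector cells, uninduced vector minus uninfected Sca-high cells, and Sca-high 34a minus uninfected Sca-high cells. A gene was said to rise or fall where the adjusted p was below 0.01 (limma, Benjamini-Hochberg over all 10597 genes tested) and the log2 fold change exceeded 0.5 in size. Fold changes are on the scale of log2(scaled RPKM + 0.1), which understates changes of low genes. Genes needed 1 RPKM or more in at least 3 libraries to be tested, which 8 of the 10 members reached, and Bbc3 and Bmf did not.

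Undifferentiated Sca-high cells held less Bcl2l1 and Mcl1, which encode pro-survival proteins, and more Pmaip1 and Bcl2l11, which encode BH3-only proteins, than differentiated Sca-low cells. Bcl2l1 was 2.35-fold lower and Mcl1 1.45-fold lower, while Pmaip1 was 2.45-fold and Bcl2l11 1.98-fold higher. The other BH3-only members went the other way. Bid was lower in Sca-high cells, at -0.4975 on the log2 scale, just short of the limit. Bbc3 and Bmf, from the fit with no filter on low values, were lower as well, at -0.61 and -1.01. In all, 4 of the 8 tested members passed the test, 2 higher and 2 lower, where 40.3% of all tested genes did (19.9% higher and 20.4% lower). A share of 4 in 8 is near this background. The median log2 fold change was -0.36 over the 8 tested members and -0.0034 over all tested genes. Without libraries 3 and 12, Bid passed as well, as lower in Sca-high cells (-0.57), and 5 members were called, where 45.1% of all tested genes were.

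After 24 h of doxycycline, Sca-high 34a cells held 4.21-fold less Pmaip1 than the uninduced Sca-high NT cells. Bid rose 1.78-fold, Bak1 1.69-fold and Bcl2l1 1.60-fold. The same number of members, 4 of the 8 tested, passed the test, 3 higher and 1 lower, where 39.0% of all tested genes did (17.5% higher and 21.4% lower). Read against that background, the number of changed members is not in itself a result about the family. The median log2 fold change was 0.24 over the 8 members and -0.033 over all tested genes. Mki67, a marker of cycling cells, fell in the same comparison by 4.06 on the log2 scale (adjusted p = 6.09e-12, limma), and Cdkn1a, a p53 target that encodes the cell cycle inhibitor p21, rose by 1.75 (adjusted p = 0.000204, limma). The part of either in the result was not tested.

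The uninduced vector cells were themselves unlike the uninfected Sca-high cells. Pmaip1 was 3.06-fold, Bcl2l1 1.82-fold and Bid 1.45-fold higher in Sca-high NT cells, and Bcl2l11 was 1.63-fold and Bcl2 1.59-fold lower. Thus 5 of the 8 tested members passed the test, 3 higher and 2 lower, where 21.6% of all tested genes did (10.4% higher and 11.1% lower). The median log2 fold change was 0.46 over the members and 0.0071 over all genes. The balance of all calls moved with the scaling, from 48.3% higher to 32.9% with the upper quartile and 60.3% with a trimmed mean over all genes above 0. Cdkn1a was higher in the vector group too, at 2.21 to 3.62 scaled RPKM in Sca-high and 7.02 to 9.54 in Sca-high NT libraries, and its part in the result was not tested.

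Against uninfected Sca-high cells, Sca-high 34a cells held 2.91-fold more Bcl2l1, 2.58-fold more Bid and 2.36-fold more Bak1, and 1.64-fold less Bcl2l11. That is 4 of 8 tested members, 3 higher and 1 lower, where 47.5% of all tested genes passed (22.2% higher and 25.3% lower). Members and all genes had median log2 fold changes of 0.23 and -0.017. Of all calls 46.7% were higher, and 57.5% with a trimmed mean over all genes above 0. Without libraries 3 and 12 the number of called members was 6, since Mcl1 (0.67) and Pmaip1 (-0.60) then passed, where 54.2% of all tested genes did. The last 3 comparisons share libraries with each other and the first shares its Sca-high libraries with the last pair, so their values are given side by side and are not independent.

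**Figure D1:**
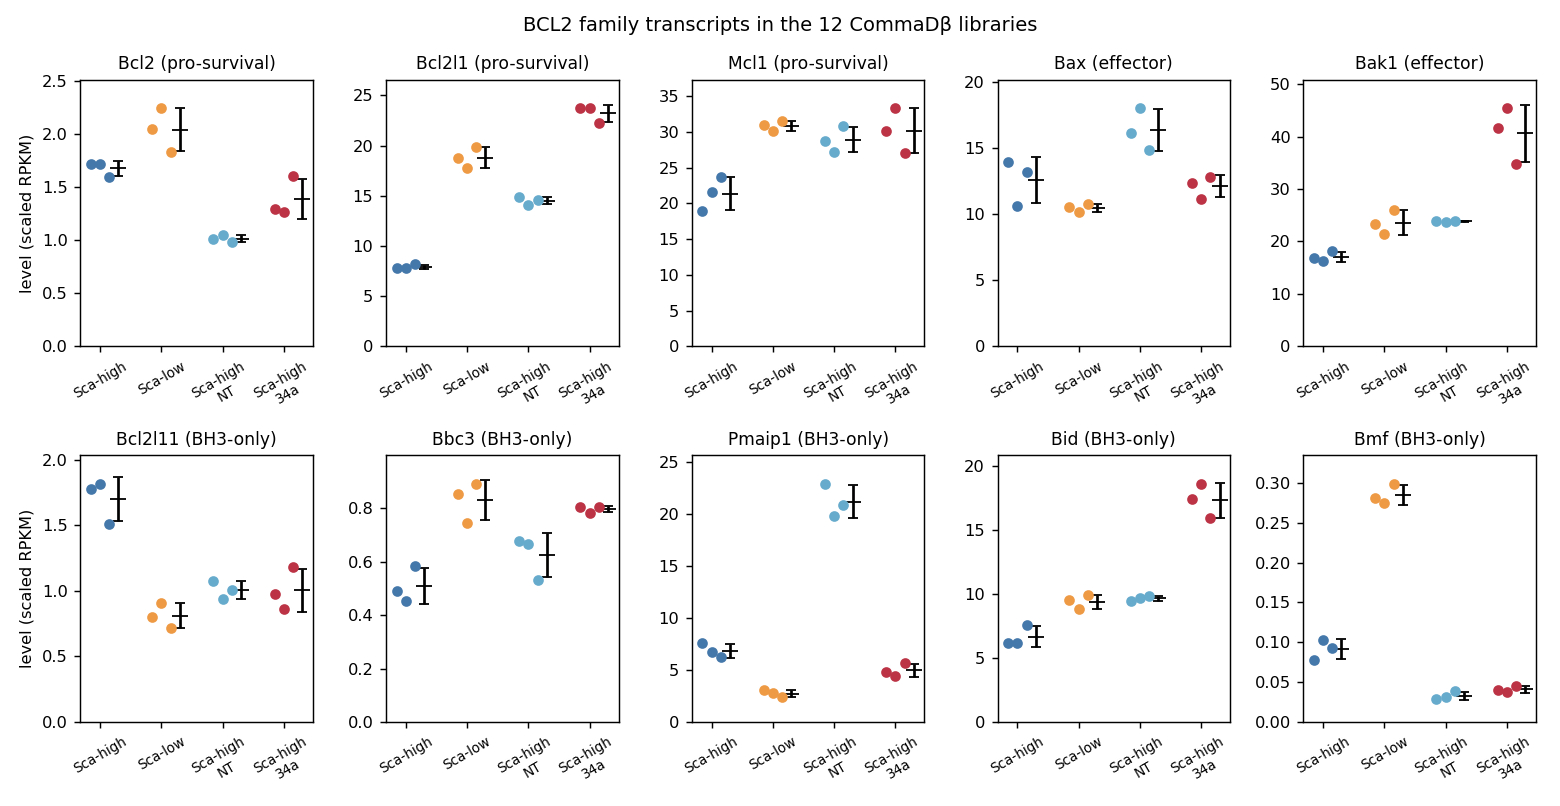
Level of each BCL2 family transcript in scaled RPKM (vertical axes, each from 0) in the 12 libraries, with 1 point per library and the mean ± SD of the 3 libraries of each group as a bar. Pmaip1 lies between 19.8 and 22.9 in Sca-high NT libraries and at 7.56 or less elsewhere, and Bcl2l1, Bid and Bak1 are highest in Sca-high 34a libraries.

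**Figure D2:**
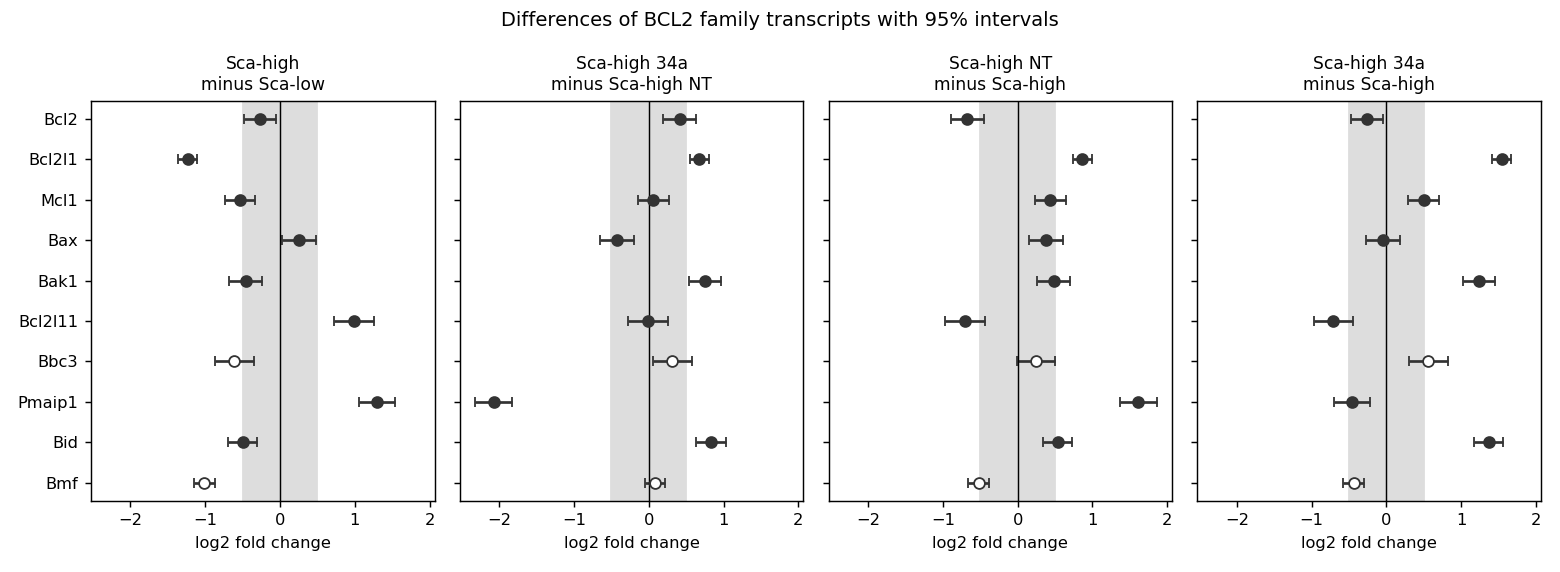
Log2 fold change of each member (horizontal axis) with its 95% interval in the 4 comparisons, with filled points for the 8 tested members, open points for Bbc3 and Bmf from the fit with no filter on low values, and a grey band for changes of up to 0.5 in size. Bcl2l1 lies outside the band in each comparison, at -1.23, 0.67, 0.87 and 1.54.

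Bcl2l1, which encodes the pro-survival protein BCL-XL, had 4 groups that did not overlap, as did Pmaip1. How many of all tested genes separate in this way was not counted. Bcl2l1 was at 7.83, 7.78 and 8.17 scaled RPKM in Sca-high libraries and at 18.8, 17.7 and 19.8 in Sca-low libraries. With the vector it was at 14.8, 14.1 and 14.6 in Sca-high NT and at 23.7, 23.7 and 22.3 in Sca-high 34a libraries. No library of a group reached into the next, and the order ran from Sca-high over Sca-high NT and Sca-low to Sca-high 34a, with a ratio of 2.93 between the means of the ends. The log2 fold change was -1.23 ± 0.059 (SE) for Sca-high minus Sca-low (adjusted p = 4.22e-09, limma) and 0.67 ± 0.059 for induced minus uninduced vector cells (adjusted p = 1.1e-06, limma). A larger difference, 0.87 ± 0.059, separated the uninduced vector cells from uninfected Sca-high cells (adjusted p = 3.96e-07, limma). Cox4i2 overlaps Bcl2l1 in the annotation, and as it was at 0.13 scaled RPKM or less in every library, its reads can add little to those of Bcl2l1.

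Mcl1 encodes a pro-survival protein of short life that NOXA binds and marks for breakdown. Its levels were 18.9, 21.5 and 23.6 scaled RPKM in Sca-high libraries and 30.9, 30.2 and 31.5 in Sca-low libraries. In Sca-high NT libraries they were 28.7, 27.2 and 30.8, and in Sca-high 34a libraries 30.2, 33.3 and 27.0. Only the Sca-high group was apart, as the other 3 groups overlapped, and Mcl1 had the smallest ratio of highest to lowest group mean, 1.44. The log2 fold change of Sca-high minus Sca-low was -0.53 ± 0.094 (adjusted p = 0.000361, limma), near the limit of 0.5. Mcl1 missed that limit with upper quartile scaling (-0.46), with RPKM as deposited (-0.45) and without library 1 (-0.44). Between Sca-high 34a and Sca-high NT cells Mcl1 did not pass the test, at 0.06 with a 95% interval of -0.15 to 0.26 (adjusted p = 0.606, limma). Sca-high 34a minus Sca-high was 0.497 ± 0.094 (adjusted p = 0.00052, limma), just short of 0.5. It passed with the trimmed mean over all genes above 0 (0.64), with RPKM as deposited (0.54), with limma-voom (0.53), without library 3, 7, 8, 9, 10 or 12 alone (0.505 to 0.61) and without libraries 3 and 12 (0.67). Mcl1 in Sca-high NT against Sca-high cells also passed with that trimmed mean (0.52).

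Bcl2, the founding member of the family, was low throughout. Sca-high libraries held 1.71, 1.71 and 1.60 scaled RPKM and Sca-low libraries 2.05, 2.24 and 1.83. The vector cells held less, with 1.01, 1.05 and 0.98 in Sca-high NT and 1.30, 1.26 and 1.61 in Sca-high 34a libraries. Sca-high NT libraries were the lowest and did not overlap any other group, while Sca-high and Sca-high 34a libraries overlapped through library 12. Bcl2 fell in Sca-high NT against Sca-high cells, by 0.67 on the log2 scale (SE 0.099, adjusted p = 0.000191, limma), a call that a pseudocount of 1 ended (-0.41). Bcl2, whose UTR holds a seed match, lay above the uninduced level in all 3 induced libraries. The difference was 0.41 ± 0.099 (adjusted p = 0.00319, limma), under the limit of 0.5, and 0.51 without library 11, which passed.

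Among the effectors, Bak1 followed an order close to that of Bcl2l1. It was at 16.9, 16.2 and 18.1 scaled RPKM in Sca-high and at 23.4, 21.4 and 26.0 in Sca-low libraries. Sca-high NT libraries held 23.8, 23.8 and 24.0, inside the range of Sca-low, and Sca-high 34a libraries 41.6, 45.4 and 34.8. All 3 induced libraries thus lay above all 9 others, with library 12 the lowest of them. Bak1 rose by 0.75 ± 0.099 on the log2 scale from Sca-high NT to Sca-high 34a (adjusted p = 3.48e-05, limma), and by 0.93 without libraries 3 and 12. For Sca-high minus Sca-low the value was -0.46 ± 0.099 and for uninduced vector minus uninfected Sca-high cells 0.48 ± 0.099, both under the limit of 0.5 with adjusted p of 0.00149 and 0.00189 (limma). Both passed with the trimmed mean over all genes above 0 (-0.53 and 0.56), and the first without library 5 (-0.55). Ggnbp1, which overlaps Bak1, was listed at 0 in all 12 libraries.

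Bax, the other effector, did not move with Bak1. Its levels were 14.0, 10.6 and 13.2 scaled RPKM in Sca-high and 10.5, 10.1 and 10.8 in Sca-low libraries. They were 16.2, 18.0 and 14.9 in Sca-high NT and 12.4, 11.2 and 12.8 in Sca-high 34a libraries. Sca-high NT libraries were highest and stood clear of the rest, and library 2 brought the Sca-high group into overlap with Sca-low. In none of the 4 comparisons did Bax pass both limits. Bax, whose UTR holds a seed match, lay below the uninduced level in all 3 induced libraries. The largest difference was that of induced minus uninduced vector cells, -0.43 ± 0.104 with a 95% interval of -0.65 to -0.20 (adjusted p = 0.00339, limma).

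Pmaip1, which encodes NOXA, had the widest range of the tested members. Sca-high libraries held 7.56, 6.78 and 6.23 scaled RPKM and Sca-low libraries 3.04, 2.76 and 2.43. In Sca-high NT libraries it was at 22.9, 19.8 and 20.9, and in Sca-high 34a libraries at 4.84, 4.43 and 5.65. The 4 groups did not overlap, and the mean of Sca-high NT, 21.2 ± 1.57 (SD, n = 3), was 7.73 times that of Sca-low, 2.74 ± 0.306 (SD, n = 3). From Sca-high NT to Sca-high 34a Pmaip1 fell by 2.07 on the log2 scale (SE 0.111, adjusted p = 1.42e-08, limma), and it was higher in uninduced vector cells than in uninfected ones by 1.62 ± 0.111 (adjusted p = 4.14e-07, limma). The induced cells ended near the uninfected Sca-high cells, at -0.46 ± 0.111 (adjusted p = 0.0028, limma), which misses the limit of 0.5 and passes it without library 3 (-0.53), without library 12 (-0.51) and without both (-0.60). Undifferentiated cells exceeded differentiated cells by 1.29 ± 0.111 (adjusted p = 8.35e-07, limma).

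Bid encodes the BH3-only protein that caspase 8 cleaves, which links death receptors to mitochondria. It was at 6.18, 6.21 and 7.61 scaled RPKM in Sca-high and at 9.52, 8.83 and 9.91 in Sca-low libraries. Sca-high NT libraries held 9.48, 9.70 and 9.85, within the range of Sca-low, and Sca-high 34a libraries 17.5, 18.6 and 15.9. As for Bak1, the 3 induced libraries were above all others and the Sca-high libraries were below all others. Bid, whose UTR also holds a seed match, rose by 0.83 ± 0.089 with induction (adjusted p = 6.13e-06, limma). It was also higher in uninduced vector cells than in uninfected ones, by 0.54 ± 0.089 (adjusted p = 0.000427, limma), a call that ended with upper quartile scaling (0.42), with a pseudocount of 1 (0.48) and without library 1 (0.48) or library 2 (0.48). Sca-high minus Sca-low was -0.4975 ± 0.089 (adjusted p = 0.000393, limma), just short of the limit, and it passed without libraries 3 and 12 (-0.57), without library 3, 4 or 5 alone (-0.51 to -0.58), with the trimmed mean over all genes above 0 (-0.57) and with a pseudocount of 0.01 (-0.503).

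Bcl2l11, which encodes BIM, separated the uninfected Sca-high cells from everything else. It was at 1.78, 1.82 and 1.51 scaled RPKM in Sca-high and at 0.80, 0.91 and 0.72 in Sca-low libraries. In the vector groups it was at 1.07, 0.94 and 1.01 (Sca-high NT) and at 0.97, 0.86 and 1.19 (Sca-high 34a). The 3 groups other than Sca-high overlapped their neighbours in the order. Sca-high minus Sca-low was 0.99 ± 0.121 (adjusted p = 1.93e-05, limma). Bcl2l11 fell against uninfected Sca-high cells by 0.70 in Sca-high NT and by 0.71 in Sca-high 34a cells (adjusted p = 0.000586 and 0.000233, limma), and both calls ended with a pseudocount of 1 (-0.43 in each). The difference between the vector groups was -0.01 with a 95% interval of -0.27 to 0.26 (adjusted p = 0.951, limma), and its sign turned with the scaling, to 0.07 with the upper quartile. Acoxl, which overlaps Bcl2l11, was at 0.018 scaled RPKM or less.

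Bbc3, which encodes the p53-induced protein PUMA, stayed under 1 scaled RPKM, with 65 to 138 reads per library. Its levels were 0.49, 0.45 and 0.59 in Sca-high, 0.85, 0.75 and 0.89 in Sca-low, 0.68, 0.66 and 0.53 in Sca-high NT and 0.80, 0.78 and 0.80 scaled RPKM in Sca-high 34a libraries. Sca-high and Sca-high NT libraries overlapped at the low end and Sca-low and Sca-high 34a libraries at the high end. In a fit with no filter on low values (18912 genes) Bbc3 was -0.61 ± 0.117 for Sca-high minus Sca-low (adjusted p = 0.00114, limma) and 0.32 ± 0.117 for induced minus uninduced vector cells (adjusted p = 0.0491, limma).

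Bmf, whose protein is known for its part in the death of detached mammary epithelial cells, was the scarcest member, with 11 to 112 reads per library. It was at 0.078, 0.103 and 0.093 scaled RPKM in Sca-high and at 0.281, 0.275 and 0.299 in Sca-low libraries. The vector groups held 0.029, 0.032 and 0.038 (Sca-high NT) and 0.040, 0.038 and 0.045 (Sca-high 34a). Sca-low libraries were far above the rest, with a mean 8.62 times that of Sca-high NT, and only the 2 vector groups overlapped. With no filter on low values, Sca-high minus Sca-low was -1.01 ± 0.063 (adjusted p = 1.54e-07, limma) and induced minus uninduced vector cells 0.08 ± 0.063 (adjusted p = 0.334, limma). At levels under the pseudocount of 0.1 these fold changes are smaller than the ratios of the levels themselves.

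The members were then summed by role within each library, on the scaled RPKM scale and with no test, since a few abundant members make up each sum. The 3 pro-survival members summed to 28.5 to 33.4 in Sca-high, 50.1 to 53.2 in Sca-low, 42.4 to 46.4 in Sca-high NT and 50.9 to 58.3 in Sca-high 34a libraries. The 2 effectors summed to 26.8 to 31.3, 31.5 to 36.8, 38.9 to 41.8 and 47.5 to 56.6 in the same order. The sums of the 5 BH3-only members were 15.4 to 16.1, 13.5 to 14.5, 31.1 to 34.2 and 23.6 to 24.7. Among these 10 genes, Sca-high cells were lowest in pro-survival and Sca-high NT cells highest in BH3-only transcripts. With 9 other relatives of BCL2 added, a choice made after seeing the data, the BH3-only sum was 44.9 to 50.3 in Sca-high 34a and 40.9 to 43.8 in Sca-high NT libraries, so Sca-high 34a was then the highest, mainly through Bad. The BH3-only shares of these 19 genes overlapped, at 28.6 to 29.3% and 27.7 to 29.3%. The pro-survival sum remained lowest in Sca-high libraries, at 30.8 to 35.7 against 45.2 or more elsewhere. The effector sum changed its order through Bok, and was 52.4 to 60.5 in Sca-high and 36 to 42.3 in Sca-low libraries. It was 58.5 to 61.3 in Sca-high NT and 51.9 to 62.9 in Sca-high 34a libraries. All 10 members together came to 73.2 to 80.8 scaled RPKM in Sca-high, 95.1 to 104 in Sca-low, 115 to 119 in Sca-high NT and 122 to 140 in Sca-high 34a libraries.

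**Figure D3:**
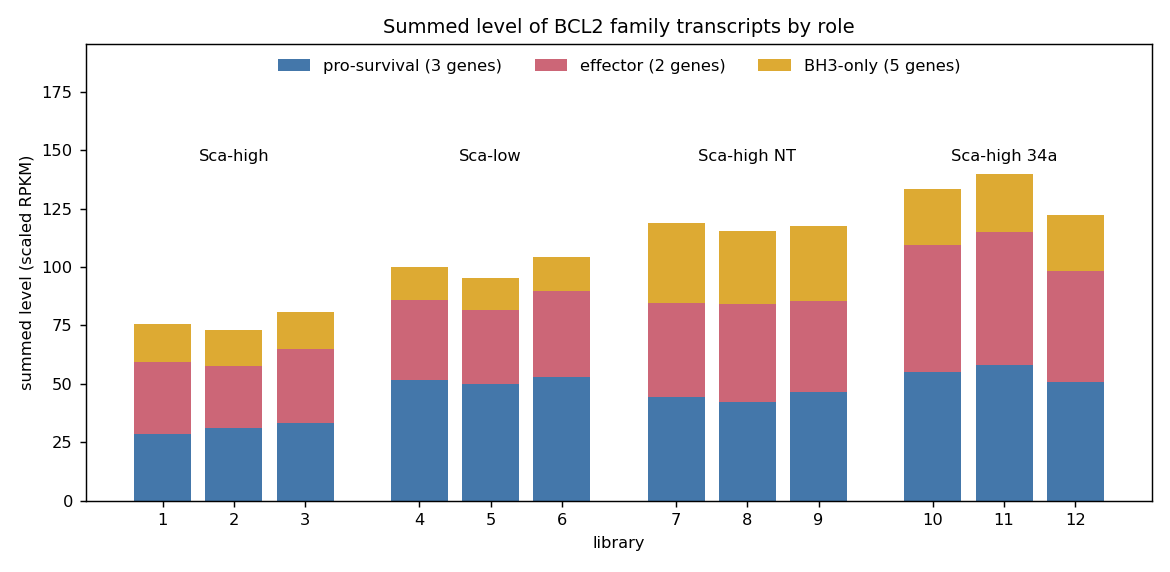
Summed level of the pro-survival (3 genes), effector (2 genes) and BH3-only (5 genes) members in scaled RPKM (vertical axis) in each of the 12 libraries (horizontal axis). The BH3-only part is 31.1 to 34.2 in the Sca-high NT libraries and 24.7 or less elsewhere, and the whole sum of these members is lowest in Sca-high libraries.

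Shares and ratios within a library do not depend on the scaling between libraries. Among the members alone, the shares did not order the groups as the sums did. Pro-survival members made up 51.0 to 52.7% of the family sum in Sca-low libraries and 36.7 to 42.4% in the other 9. BH3-only members made up 13.7 to 14.5% in Sca-low, 17.7 to 19.3% in Sca-high 34a, 19.8 to 21.3% in Sca-high and 27.0 to 28.8% in Sca-high NT libraries. The BH3-only share of the members was thus higher in Sca-high than in Sca-high 34a libraries, although the sum was lower. The pro-survival share of Sca-high libraries (37.7 to 42.4%) overlapped those of Sca-high NT (36.7 to 39.5%) and Sca-high 34a libraries (41.4 to 41.7%). With the 9 other relatives added, the BH3-only share no longer differed in order from the sum. The pro-survival share of Sca-high libraries then no longer overlapped that of Sca-high 34a libraries, but still met that of Sca-high NT libraries. The BH3-only share was then lower in Sca-high (20.5 to 21.8%) than in Sca-high 34a libraries (28.6 to 29.3%), as was the sum. The pro-survival share was then 28.8 to 30.7% in Sca-high and 30.7 to 32.7% in Sca-high NT libraries, which met at 30.7%. In Sca-high 34a libraries it was 35.4 to 36.7%. Pmaip1 alone was 17.2 to 19.3% of the sum in Sca-high NT and 3.17 to 4.62% in Sca-high 34a libraries.

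Per length, the ratio of Mcl1 to Pmaip1, the transcript of its BH3-only partner NOXA, was 2.50 to 3.79 in Sca-high and 10.2 to 13.0 in Sca-low libraries. It was 1.25 to 1.48 in Sca-high NT and 4.79 to 7.52 in Sca-high 34a libraries, so the 4 groups did not overlap. Pmaip1 alone also separated the groups, and how many other ratios do so was not counted. The ratio of Bcl2l1 to Bax was below 1 in Sca-high (0.56 to 0.73) and Sca-high NT libraries (0.78 to 0.98) and above it in Sca-low (1.75 to 1.84) and Sca-high 34a libraries (1.74 to 2.12). Sca-high 34a and Sca-low cells had the same side of 1 in this ratio, and the range of Sca-low lay within that of Sca-high 34a. The ratio of the effectors, Bak1 to Bax, was 1.21 to 1.53 in Sca-high, 1.32 to 1.61 in Sca-high NT, 2.11 to 2.42 in Sca-low and 2.72 to 4.06 in Sca-high 34a libraries. Bcl2 and Bcl2l11 were at about the same level per length in Sca-high (ratio 0.94 to 1.06) and Sca-high NT libraries (0.94 to 1.11), and Bcl2 was the higher in Sca-high 34a (1.33 to 1.47) and Sca-low libraries (2.46 to 2.55).

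A list of 65 other apoptosis genes was set beside the members, of which 50 were tested. For Sca-high minus Sca-low 23 of the 50 passed (46%, 11 higher and 12 lower), for induced minus uninduced vector cells 21 (42%, 9 higher and 12 lower), for uninduced vector minus uninfected Sca-high cells 12 (24%, 7 higher and 5 lower) and for Sca-high 34a minus Sca-high 25 (50%, 13 higher and 12 lower). These shares are near those of all tested genes, 40.3%, 39.0%, 21.6% and 47.5%, and the counts of the single lists, of 1 to 10 tested genes each, are to be read against the same background. Their median log2 fold changes were 0.24, -0.012, 0.036 and -0.10.

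Among the other relatives of BCL2, 3 were as marked as the members. Bcl2l2, which encodes the pro-survival protein BCL-W, was at 2.28, 2.16 and 2.32 scaled RPKM in Sca-high and at 4.20, 4.31 and 4.45 in Sca-low libraries. It rose from 2.75, 2.85 and 2.60 in uninduced to 4.58, 4.24 and 5.24 in induced libraries, by 0.75 on the log2 scale (adjusted p = 5.61e-06, limma). Like Bcl2l1, Bcl2l2 was thus lower in undifferentiated than in differentiated cells and higher after induction. Bok, an effector-like member, went the other way, from 18.5, 19.5 and 20.5 in uninduced to 5.91, 6.38 and 4.35 in induced libraries, a fall of 1.81 (adjusted p = 8.76e-07, limma), and it was higher in undifferentiated than in differentiated cells by 2.22 (adjusted p = 1.25e-07, limma). Bad, a BH3-only gene, rose from 9.65, 9.73 and 9.30 in uninduced to 24.8, 25.4 and 21.1 in induced libraries, by 1.30 (adjusted p = 2.03e-07, limma).

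Of the 6 tested genes for BNIP and further BCL2-related proteins, 1 was higher and 1 lower in undifferentiated cells, and 1 rose and none fell with induction. Bnip3, a hypoxia-induced mitochondrial protein gene, was 2.11 higher on the log2 scale in undifferentiated than in differentiated cells (adjusted p = 2.51e-07, limma), and Bnip2 was lower, at -0.89 (adjusted p = 5.81e-07, limma). Bnip3l, a mitophagy receptor gene, rose by 0.74 from Sca-high NT to Sca-high 34a (adjusted p = 6.36e-06, limma).

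Downstream of the mitochondria, all 10 genes of the apoptosome and caspase list were tested. For Sca-high minus Sca-low 2 were higher and 3 lower, among them Casp8, the initiator caspase that cleaves BID, which was at 6.86, 7.71 and 7.72 scaled RPKM in Sca-high and at 20.8, 19.1 and 20.7 in Sca-low libraries, a difference of -1.43 (adjusted p = 1.8e-08, limma). Casp9 and Casp2 were the genes higher in Sca-high cells, by 0.93 and 0.58 on the log2 scale, the call of Casp9 ending with a pseudocount of 1 (0.49). For induced minus uninduced vector cells 2 rose and 4 fell. Casp2 went from 6.96, 7.32 and 7.31 to 1.86, 1.69 and 1.98 scaled RPKM, a fall of 1.91 (adjusted p = 3.8e-10, limma), and Dffb, which encodes a DNase of apoptosis, fell by 1.16. Casp6, an executioner caspase, rose by 0.66, and Casp8 by 0.52, a call that ended with a pseudocount of 1 (0.48) and without library 11 (0.50, just under the limit).

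The inhibitors of apoptosis held 5 tested genes, of which 2 were higher and 2 lower in Sca-high against Sca-low cells, and 1 rose and 1 fell with induction. Birc5, which encodes survivin and serves in mitosis as well as in survival, fell from 15.7, 15.7 and 15.2 scaled RPKM in uninduced to 1.03, 0.82 and 0.99 in induced libraries, by 3.91 on the log2 scale (adjusted p = 6.09e-12, limma), beside the fall of Mki67 given above. Birc3, which encodes cIAP2, rose from 0.35, 0.35 and 0.46 to 1.57, 1.78 and 1.60, by 1.86 (adjusted p = 3.9e-08, limma). Xiap and Birc6 were higher in undifferentiated than in differentiated cells by 0.72 and 0.62, and Birc5 and Birc3 lower, at -0.79 and -1.04. The call of Birc6 ended without library 6 (adjusted p = 0.0129, limma) and that of Birc3 with a pseudocount of 1 (-0.34).

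In the death receptor list 7 genes were tested, of which 2 were higher and none lower in Sca-high against Sca-low cells, and 2 rose and 1 fell with induction. Fas, the receptor gene, was 2.03 higher in undifferentiated than in differentiated cells (adjusted p = 9.33e-07, limma) and higher again in Sca-high NT than in Sca-high cells, by 1.16 (adjusted p = 0.000246, limma). Tnfrsf1a, the TNF receptor gene, was higher in undifferentiated than in differentiated cells by 1.00. After induction Cflar, which encodes the caspase 8 inhibitor FLIP, rose by 0.69 (adjusted p = 1.14e-05, limma) and Tradd, a receptor adaptor gene, by 0.68 (adjusted p = 0.000101, limma). Tnfrsf10b, the TRAIL receptor gene, was lower by 0.54 (adjusted p = 0.00554, limma), a call that ended without library 7, 8, 9, 10 or 11 and under each of the other scalings tried.

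Of the 9 upstream transcription factors, all tested, 1 rose and 5 fell from Sca-high NT to Sca-high 34a, where 39.0% of all tested genes passed (17.5% higher and 21.4% lower). Trp63, a basal factor of the p53 family, fell by 1.20 (adjusted p = 3.11e-05, limma) and Trp73 by 1.81 (adjusted p = 2.74e-06, limma). Both were higher in undifferentiated than in differentiated cells, by 3.93 and 3.64. Foxo1, a factor that activates Bcl2l11 in other cells, was higher after induction by 0.92, a call that ended without library 7, 9 or 12 (adjusted p = 0.0124, 0.016 and 0.0101, limma). Ddit3, the stress factor CHOP, was at 16.8, 14.5 and 19.0 scaled RPKM in Sca-high and at 7.52, 7.86 and 7.72 in Sca-high NT libraries, lower in Sca-high NT by 1.10 (adjusted p = 3.07e-06, limma). Trp73 was also lower in Sca-high NT than in Sca-high cells, by 1.1 (adjusted p = 0.000352, limma). So was Foxo1, by 1.39 (adjusted p = 0.000467, limma), which was not among the 2 lower genes with the smallest p. Alternatives for this Foxo1 difference are not given. Foxo3 and Atf4 were higher in Sca-high NT cells, by 0.63 and 0.55 (adjusted p = 0.00172 and 0.00244, limma). The call of Foxo3 ended with a pseudocount of 1 (0.48) and without library 2 or 7 (adjusted p = 0.0109 and 0.0113, limma). That of Atf4 ended with upper quartile scaling (0.44) and without library 1, 2, 7 or 9 (adjusted p = 0.0118 to 0.0167, limma).

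Vdac2, which encodes the channel that binds BAK at the mitochondrial membrane, was at 37.9, 45.0 and 49.3 scaled RPKM in Sca-high and at 127, 114 and 130 in Sca-low libraries, lower in Sca-high by 1.49 (adjusted p = 8.35e-07, limma). Vdac3 was lower in Sca-high cells by 0.68. Of the 4 tested genes for proteins that mitochondria release, Endog, which encodes endonuclease G, was lower in Sca-high cells, at -1.03 (adjusted p = 7.51e-05, limma), and the other 3 did not pass. Fbxw7, a ligase gene for MCL1 breakdown, was lower in Sca-high NT than in Sca-high cells by 0.52 (adjusted p = 4.17e-05, limma), a call that ended with a pseudocount of 1 (-0.39) and with the trimmed mean over all genes above 0 (-0.44).

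**Figure D4:**
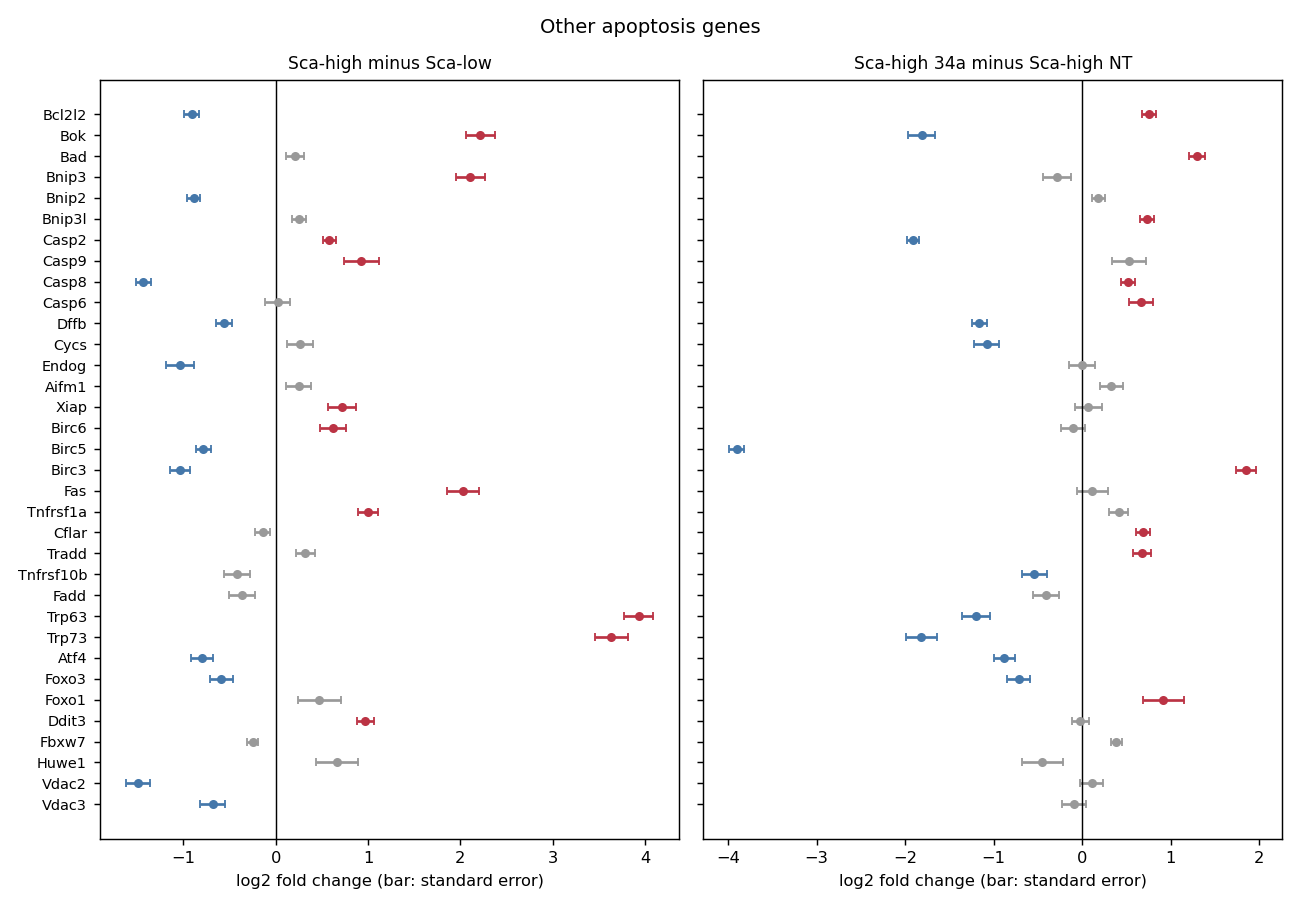
Log2 fold change (horizontal axes) with its standard error for other apoptosis genes taken by the rule of naming, in red where the gene rose, in blue where it fell and in grey where it did not pass the test, for Sca-high minus Sca-low (left) and induced minus uninduced vector cells (right). Birc5 lies farthest to the left after induction, at -3.91, and Trp63 farthest to the right in the comparison of Sca-high with Sca-low, at 3.93.

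For the 3 tested members with the widest range of group means, the genes with the most similar pattern over the 12 libraries were looked up, as a description with no test, since the 12 libraries fall into 4 groups that set most of the correlation. Among the genes closest to Pmaip1 (range 2.91 on the log2 scale) were Vps37b (Pearson r = 0.982) and Amotl1 (0.981). Among those closest to Bcl2l1 (range 1.54) were AU018091 (0.996) and Dync1li1 (0.985), and Bid (range 1.37) was closest to Mlx (0.994), Copz1 (0.993) and Arpc5 (0.992).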

How the data were processed

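RNA was measured by RNA-seq in 12 libraries. The authors deposited a table of RPKM, described as raw reads. The authors' processing notes list TopHat2 2.0.6, DESeq2 and the mm9 build. How reads were counted, with which strand setting and on which annotation, is not given in the sources used here, so reads of overlapping genes cannot be told apart by strand. The authors also deposited means of normalized reads, used here only for depth, and fold changes and p-values of their own comparisons, not used here.

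The RPKM of a library rise in steps of 1 read, from which whole reads were recovered for depth and an alternative test, and 100.0% of 116958 values of 1 to 999 reads were whole within 0.1 reads. RPKM were scaled by an unweighted trimmed mean of M values over the tested genes (30% of M and 5% of A values trimmed) and tested with limma 3.58.1 (trend) in R 4.3.3 on log2(scaled RPKM + 0.1), in 1 model of 4 groups with 8 residual degrees of freedom. The model was also run on simulated counts in which no library stood apart from its group, so that run does not cover libraries that do. Figures and tables were made with Python 3.11.15, numpy 2.4.6, pandas 2.3.3 and matplotlib 3.10.9. Errors after ± in fold changes are SE with n = 3 libraries per group. Groups followed sample titles. The columns carry a running library number and no replicate number. From each list and comparison, the 2 called higher and the 2 called lower genes with the smallest p could be named, together with all members, Mir34a, Ly6a, Mki67, Cdkn1a and, for the 3 members of widest range, the 3 most correlated genes. Some genes that this rule takes are not reported here. Members, lists and rules were chosen with earlier results of these data known. Alternatives covered scaling, filter, pseudocount, thresholds, groups in the model, left-out libraries and limma-voom on recovered reads.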

Additional observations from a re-analysis of the deposited data

How the results depend on the processing

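No paired analysis was possible because the columns of the table carry a running library number and no replicate number. The counts of called members kept within 1.5 times under each scaling, without libraries 3 and 12 and with limma-voom. With an adjusted p below 0.05 and no minimum fold change, 8 members were called for Sca-high minus Sca-low, 8 for uninduced vector minus uninfected Sca-high cells and 7 for Sca-high 34a minus Sca-high, where 67.7%, 50.6% and 72.8% of all tested genes were, and of the other apoptosis genes 40 for Sca-high minus Sca-low, 36 for induced minus uninduced vector cells and 30 for uninduced vector minus uninfected Sca-high cells (64.9% of all genes in the second). With a log2 fold change above 1, the members called were 2 for Sca-high minus Sca-low and 1 each for induced minus uninduced vector cells and uninduced vector minus uninfected Sca-high cells, and the other genes were 10, 10 and 4, with 14 for Sca-high 34a minus Sca-high, where 18.6%, 16.0%, 7.30% and 21.7% of all tested genes were. With 1 RPKM or more in every library, which tests fewer genes (8449), 3 members and 7 other genes were called for uninduced vector minus uninfected Sca-high cells and 15 other genes for Sca-high minus Sca-low (15.7% and 34.1% of all genes). A pseudocount of 1 left 2 members and 7 other genes for uninduced vector minus uninfected Sca-high cells (14.6% of all genes).

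Leaving out each library in turn gave 3 to 6 called members for Sca-high minus Sca-low, 4 to 5 for induced minus uninduced vector cells, 4 to 5 for uninduced vector minus uninfected Sca-high cells and 4 to 6 for Sca-high 34a minus Sca-high, and 21 to 27, 19 to 21, 8 to 14 and 21 to 26 other genes. Signs turned only for differences that did not pass the test. Bcl2l11 in induced minus uninduced vector cells was 0.071 with the upper quartile, 0.047 with the trimmed mean over all genes above 0, 0.048 with RPKM as deposited, 0.018 with the 2 groups alone, 0.037 with limma-voom, and -0.063 to 0.12 with single libraries left out, above 0 without library 3, 7, 9, 10 or 11. Bax in Sca-high 34a minus Sca-high was 0.095 with the trimmed mean over all genes above 0, which was added after seeing the data, and -0.17 to 0.026 with single libraries left out, above 0 without library 1 or 11. The 8-base site was in 0 members. The cause of these changes was not tested beyond the construction of each alternative. Scaling moved the balance of all calls. Of the genes called for uninduced vector minus uninfected Sca-high cells, 48.3% were higher, against 32.9% with the upper quartile (median of all genes shifted to -0.106) and 60.3% with the trimmed mean over all genes, which gave 57.5% in place of 46.7% for Sca-high 34a minus Sca-high (median 0.122). Depth limits Bmf and Bbc3, with 11 to 138 reads per library.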
